A study of Homo sapiens with 8 samples.

Results

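The cytosolic ribosomal protein genes encode the proteins of the cytoplasmic ribosome. They were taken from an array series on Zalypsis, a DNA-binding compound of marine origin, in 2 human lines of multiple myeloma, MM1S and OPM1. A probe set was a member when its only gene symbol on the platform was RPL or RPS with a number, RPLP0 to RPLP2 or RPSA. The RPS6K kinases, RPS27L, RPS19BP1, RPS4Y1, RPS4Y2 and pseudogenes were left out. The rule used no measured value. It gave 118 of 54675 probe sets, for 59 of 19775 genes. Of these 59, 52 were among 77 ribosomal protein genes known from textbooks, and 7 were paralogs whose symbol closes in L or L1. Another 15 ribosomal protein genes were named only by probe sets that also carry other symbols, and these are described apart. The probe set with the highest mean signal stood for each gene. All but RPL3L, which was too dim at 1.00 to 15.5, passed a filter that left out the dimmest 40% of genes, so 58 members were tested among 11865 genes.

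There were 8 arrays of the HG-U133 Plus 2.0 design in 4 groups of 2: MM1S control, MM1S with Zalypsis, OPM1 control and OPM1 with Zalypsis. Treated cells received 5 nM and were collected as cell death set in, with 15 to 20% of cells binding annexin V. The labels give no treatment time and no vehicle for the controls. Whether both arrays of a group had a culture of their own is not said, so p-values measure only the spread between arrays, which may be technical. Each line is a single established culture. In RNA from whole cultures, fewer cells of a kind and less RNA per cell cannot be told apart.

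A ribosome has a small subunit, which reads the message, and a large subunit, which joins amino acids. Each protein is needed in about equal number, and the genes are known for steady, high and coordinated expression. Plasma cells and myeloma cells, which secrete immunoglobulin, depend on high translation. Most of these messages begin with a C followed by a run of pyrimidines, the 5′ terminal oligopyrimidine (TOP) motif, through which the mTOR pathway and the RNA-binding protein LARP1 control their translation. Some ribosomal proteins, RPL5 and RPL11 among them, also bind the ubiquitin ligase MDM2 when ribosome assembly fails. Many of the genes have processed pseudogene copies of near-identical sequence, which probes can read as well. Among probe sets, names ending in _x_at mark probes that may read unrelated transcripts, and names ending in _s_at mark probes shared by several transcripts. Of the 59 probe sets that stand for a gene, 17 end in _x_at, 27 in _s_at and 15 in _at.

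A pyrimidine run at or near the start is a sequence feature more frequent in this family than among all promoters. It is shown for members on which the results turn. RefSeq windows of the build GRCh38.p14, 300 bases long, were matched for 51 of the 59 genes, among 27305 windows in all. The stretches run from 40 bases before the annotated start to 16 after it, 5′ to 3′ on the gene's strand. Capitals mark the longest run of C and T between 10 bases before and 15 after the start. They lie at chr9:19380221-19380276 (RPS6, minus strand), chr10:78033823-78033878 (RPS24, plus), chr11:119018328-119018383 (RPS25, minus), chr3:51995880-51995935 (RPL29, minus), chr3:40457299-40457354 (RPL14, plus), chr14:49620611-49620666 (RPL36AL, minus), chrX:119791615-119791670 (RPL39, minus), chr1:6199580-6199635 (RPL22, minus) and chr3:170870180-170870235 (RPL22L1, minus). These genes were chosen after their values were seen.
RPS6: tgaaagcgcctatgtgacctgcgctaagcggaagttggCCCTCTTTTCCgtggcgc
RPS24: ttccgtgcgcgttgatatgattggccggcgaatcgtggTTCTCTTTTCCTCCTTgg
RPS25: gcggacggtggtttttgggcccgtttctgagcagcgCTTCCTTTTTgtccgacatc
RPL29: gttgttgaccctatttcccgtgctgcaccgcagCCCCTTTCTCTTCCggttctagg
RPL14: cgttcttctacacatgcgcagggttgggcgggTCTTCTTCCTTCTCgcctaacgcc
RPL36AL: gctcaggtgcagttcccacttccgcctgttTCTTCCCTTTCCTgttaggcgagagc
RPL39: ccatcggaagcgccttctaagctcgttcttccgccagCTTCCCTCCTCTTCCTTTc
RPL22: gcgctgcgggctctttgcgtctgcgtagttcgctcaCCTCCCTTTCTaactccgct
RPL22L1: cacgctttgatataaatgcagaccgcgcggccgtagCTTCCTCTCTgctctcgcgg
The run is present in all 9 stretches, in genes that were higher, lower or not called after treatment.

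A C stood at the annotated start of 74.5% of the 51 member windows, against 15.0% of all windows. A C followed by C or T for at least 5 bases in all stood there in 66.7% against 4.04%. A run of at least 7 C or T lay near the start in 78.4% against 16.4%. The letters CTTTC, read on the gene's strand between 10 bases before and 15 after the start, were present in 45.1% against 3.52%. They can lie inside the longer run. On both strands of the whole window, CCGGAAG, a core read by ETS factors, was found in 35.3% against 10.7%. TATAAA was found in 9.8% against 12.0%, and CACGTG, an E-box, in 5.88% against 7.43%. None of these 3 words overlaps another in its letters. Of the 5 paralogs with a window, 1 had a C start with at least 5 pyrimidines (20.0%), against 71.7% of the 46 other members. These shares describe RefSeq windows and carry no test.

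Measures of the arrays differed between groups. OPM1 control 1 had the highest 3′ to 5′ ratios, 2.26 for GAPDH where the 7 other arrays had 0.963 to 1.06, and 5.80 for ACTB where they had 1.78 to 2.62. Spiked-in bacterial RNA with poly-A tails, added before labelling, gave geometric means of 19.7 to 25.7 for MM1S. For OPM1 they were 299.7 and 448 without the compound and 1862 and 1349 with it. One 28S ribosomal RNA probe set read 1071 and 1327 before and 11460 and 9325 after treatment in OPM1. Dividing the OPM1 arrays by their poly-A means moved the median log2 change of all genes in OPM1 from -0.07 to -1.72. Directions in OPM1 therefore depend on the scale, and no member gene was called higher with poly-A scaling. Falls stayed lower, as that scaling moves the array as a whole down after treatment. Untreated OPM1 arrays carried little of the plasma cell antigen SDC1 (6.56 and 12.9, against 3443 and 2946 in MM1S) and had the B-cell factor PAX5 (2883 and 3556, against 9.54 and 4.23). Of 9 B-cell precursor markers, 8 were above 100 in OPM1 controls and 1 in MM1S controls. The 10 plasma cell markers summed to 8002 and 8727 in OPM1 controls and to 42180 and 39870 in MM1S controls. Of these 10, 8 were above 100 in OPM1 controls and 9 in MM1S controls. CD38 alone was higher in OPM1 controls (400.1 and 578.1, against 61.06 and 47.3). T and NK cell, myeloid and stromal markers were all below 100 in the controls of both lines. Of 4 erythroid markers, the globins HBB (596.6 and 444.9) and HBD (1359 and 1010) were above 100 in MM1S controls and none in OPM1 controls. The cells are called OPM1-labelled below, or OPM1 for short.

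Ribosomal protein genes gave signals near the upper end of the arrays in all 4 groups. Of the 58 tested members, 53 had a mean signal of at least 1000, 49 of at least 5000 and 36 of at least 10000, with a median of 10860. The highest signals of the arrays lay between 16630 and 18320, and on OPM1 control 1 the highest of all was the 17490 of RPS23, a protein of the decoding centre. Whether probes this bright still respond in proportion was not tested. Members with a mean under 1000 were RPL10L, RPL27A, RPL36A, RPL39L and RPLP2. For RPL27A, RPL36A and RPLP2 the dim probe set stood in because their bright probe sets also carry other symbols.

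Members made up a larger share of the summed signal in treated OPM1 cells than in any other group. With 1 probe set per gene, the 59 genes took 7.48% and 8.01% of the sum on the MM1S controls and 7.69% and 8.17% on treated MM1S arrays. In OPM1 the share was 8.51% and 9.03% without Zalypsis and 10.6% and 10.9% with it. The group means were 7.74% ± 0.38, 7.93% ± 0.34, 8.77% ± 0.36 and 10.7% ± 0.17 (SD, n = 2). In MM1S the treated and control arrays overlap, and in OPM1 they do not. A share does not depend on the scale of an array, so the poly-A scaling leaves it as it is. It moved together with the rest of the array: treated OPM1 arrays had a 75th percentile of 77.5 and 78.7, and the others of 101 to 115.

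**Figure D1:**
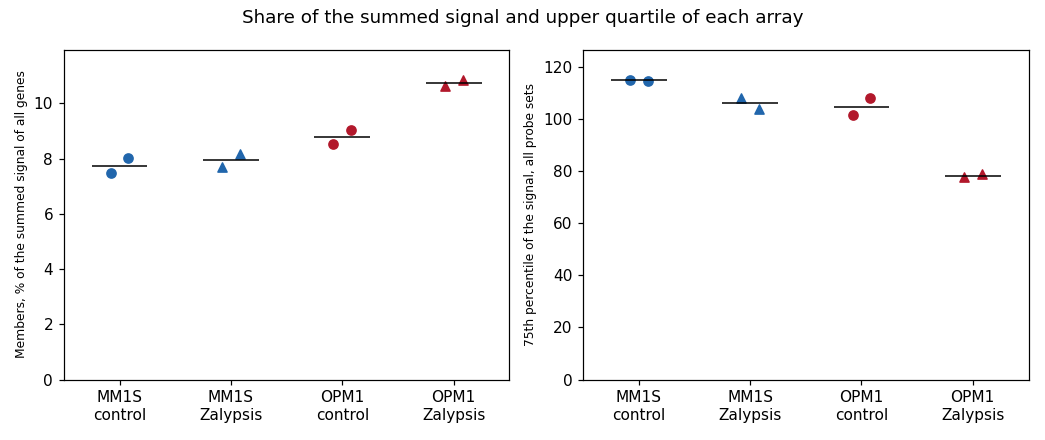
Share of the summed signal taken by the 59 ribosomal protein genes (percent, left) and 75th percentile of the deposited signal (linear scale, right) on each of the 8 arrays, by group. The treated OPM1 arrays have the highest shares (10.6% and 10.9%) and the lowest percentiles (77.5 and 78.7).

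Zalypsis left the ribosomal protein genes of MM1S close to their control level. Only 1 of the 58 rose and 0 fell, or 1.72%, where 38.3% of all genes were called, 16.6% higher and 21.7% lower. At an unadjusted p under 0.05 there was 1 higher and 1 lower. The median log2 change was -0.03, against 0.02 for all genes. Changes of 56 members lay within 0.2 of 0, and the 95% interval of 53 lay within 0.5 of 0. Among members with a mean of at least 1000, changes ran from -0.12 (RPL34, a large subunit protein) to 0.20 (RPL22L1, a paralog of RPL22). The arrays of treated and control cells did not overlap for 29 of 58 members, against 66.8% of all genes. A call here is an adjusted p under 0.05 in limma's fit of all 8 arrays on log2(signal + 32), which understates the changes of dim genes.

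The member called in MM1S was RPL36A, a large subunit protein, read by a dim probe set. Its signal was 44.3 and 43.5 in MM1S controls and 87.6 and 87.1 in treated MM1S cells, a log2 change of 0.65 ± 0.12 (SE, adjusted p = 0.000248). In OPM1 it was 20.1 and 21.8 in controls and 88.4 and 106 in treated cells, a change of 1.28 (adjusted p = 9.78e-09) that was 0.06 and not called with poly-A scaling. Treated and control arrays were separate in both lines. A bright probe set that carries RPL36A beside other symbols read 12240 and 11370 in MM1S controls and 11670 and 11850 in treated MM1S cells, and was not called there. RPL10L, a testis-expressed retrogene, had the lowest value in MM1S, with 42.5 and 54.8 in controls and 32.1 and 24.3 in treated cells (-0.42 ± 0.18, adjusted p = 0.0679). It was called lower in MM1S in each fit without an OPM1 array.

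Single settings moved the small count in MM1S. After quantile normalization 6 members were higher, 10.3% called against 43.9% of all genes. Of the 31 members that remain without _x_at and _s_at probe sets, 9 were higher, 29% against 35.9% of all genes. With the mean of a gene's probe sets 4 were higher, 6.9% against 36.6%. With a filter that leaves out 60% of genes, which drops RPL36A, 0 were, against 45.5% of all genes called. None of these 4 settings gave a lower call.

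In OPM1-labelled cells 19 members were higher and 8 lower on the deposited scale, whereas poly-A scaling gave 0 higher and 57 lower. The 27 calls are 46.6% of the members, against 64.5% of all genes, of which 25.5% were higher and 39% lower. The median change of the members was 0.04, against -0.07 for all genes, and their median absolute change 0.15, against 0.54. With poly-A scaling the medians were -2.04 and -1.72, and 98.3% of the members were called, against 93.3% of all genes. Arrays of treated and control cells did not overlap for 46 members, against 80.4% of all genes. The uncalled members ran from -0.17 to 0.16. Changes of the 53 brighter members ran from -0.35 to 1.06.

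Array OPM1 control 1 bears on these counts. Its signal was lower than that of control 2 for 45 of 58 members. Other pairs leaned to 1 side too: array 2 was higher for 44 members in treated OPM1, 18 in treated MM1S and 6 in MM1S controls. OPM1 control 1 differed from control 2 by over 0.5 on the log2 scale for 8 members, and the pairs of the other groups for 0, 0 and 1. Without it, 13 members were higher and 7 lower. Of the 19 rises, 13 stayed, and those of RPL18, RPL22, RPL32, RPL35, RPL8 and RPS19 were lost. Of the 8 falls, 6 stayed, and RPL22L1 and RPLP2 were lost, while RPL35A became lower. Without control 2 there were 24 higher and 8 lower, without Zalypsis 1 there were 13 and 3, and without Zalypsis 2 there were 12 and 5. In all 8 fits without 1 array, 10 rises were called: RPL12, RPL29, RPL36, RPL36A, RPL36AL, RPL37, RPL38, RPS9, RPS24 and RPS25. Of the falls, RPL14 and RPL27A were called in all 8.

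**Figure D2:**
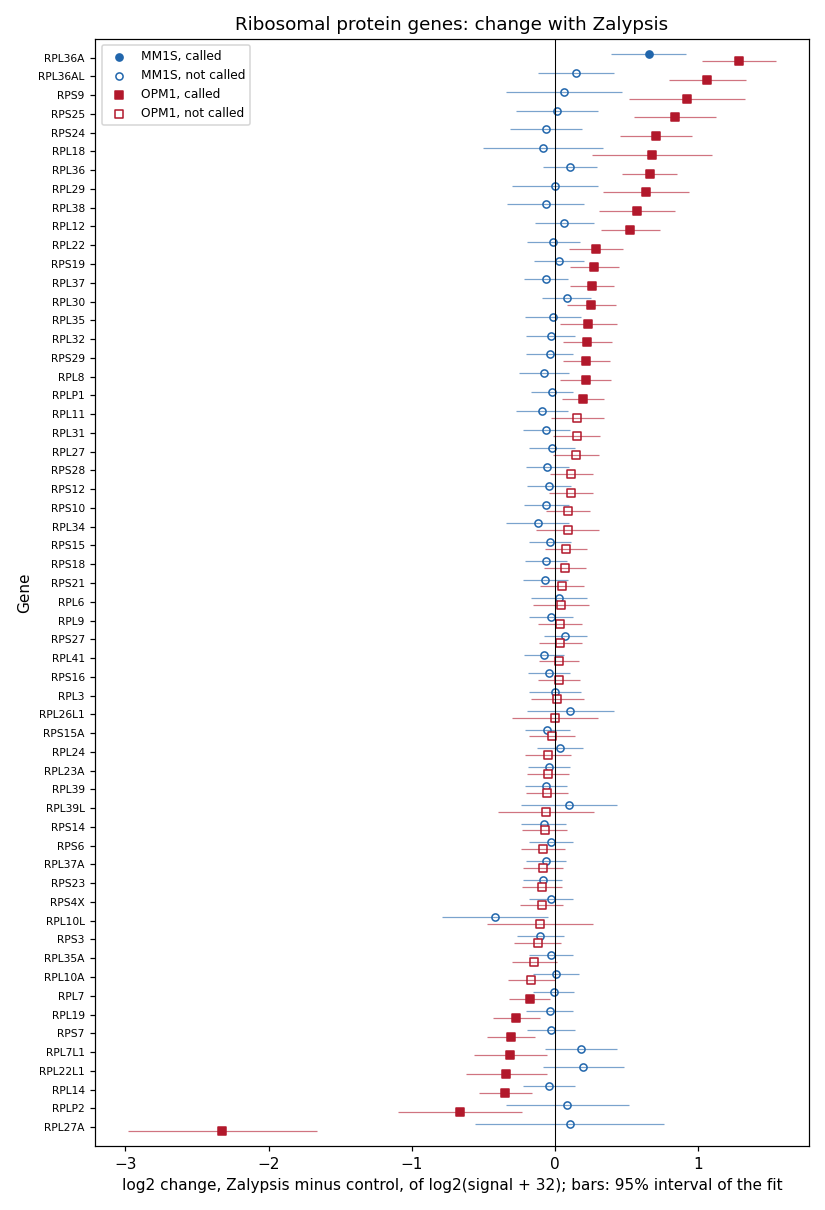
Log2 change after Zalypsis of each tested ribosomal protein gene in MM1S and in OPM1-labelled cells, with 95% intervals from limma (2 arrays a group), on the deposited scale. In MM1S only RPL36A is called. In OPM1 19 are higher and 8 lower, counts that become 0 and 57 with poly-A scaling, where 93.3% of all genes are called.

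Small subunit genes were steady in MM1S, where none of 20 was called and changes ran from -0.10 to 0.07. In OPM1 on the deposited scale 5 rose (RPS9, RPS25, RPS24, RPS19 and RPS29) and 1 fell (RPS7), 30% against 64.5% of all genes, while none rose with poly-A scaling. RPS9, which lies near the entry of the message channel, gave 5248 and 4448 in MM1S controls and 5033 and 5074 in treated MM1S cells. In OPM1 it gave 3398 and 7108 in controls and 9344 and 9311 in treated cells. The controls differ from each other more than control 2 does from the treated arrays, and the groups do not overlap. The change was 0.92 ± 0.19 (adjusted p = 0.000292), and 0.39 without control 1 and 1.45 without control 2. Poly-A scaling turned it to -1.72.

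RPS25, a small subunit protein used by viral and cellular internal ribosome entry, read 4272 and 6965 in OPM1 controls and 9848 and 9696 in treated OPM1 cells. In MM1S it read 9690 and 9766 in controls and 10020 and 9628 in treated cells. The OPM1 controls were thus the only low arrays of the 8. Its change in OPM1 was 0.84 ± 0.14 (adjusted p = 1.69e-05), 0.49 without control 1, and -1.27 with poly-A scaling. RPS24, whose gene is mutated in some Diamond-Blackfan anaemia, was also lowest in the OPM1 controls. Signals were 6064 and 9239 in OPM1 controls, 11990 and 12490 in treated OPM1 cells, 13810 and 13590 in MM1S controls and 13180 and 13100 in treated MM1S cells. The change of RPS24 in OPM1 was 0.71 ± 0.12 (adjusted p = 2.71e-05), 0.40 without control 1 and -1.40 with poly-A scaling.

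Smaller rises on the deposited scale were those of RPS19, the first gene linked to Diamond-Blackfan anaemia, and RPS29, a zinc-binding protein. RPS19 read 12460 and 15280 in OPM1 controls and 16540 and 16870 in treated cells (0.27, adjusted p = 0.00652), was not called without control 1 (0.13) and turned to -1.83 with poly-A scaling. In MM1S it read 13660 and 13080 before and 13890 and 13330 after. RPS29 changed by 0.22 (adjusted p = 0.0177) and was not called without either treated array. RPS7, which can bind MDM2, was the small subunit gene that fell: 12610 and 11800 in OPM1 controls and 9327 and 10380 in treated cells, -0.31 (adjusted p = 0.00209). The call was lost without OPM1 Zalypsis 1. A second RPS7 probe set, at 7579 and 10310 in controls and 9418 and 9668 after, was not called (0.11).

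Other small subunit genes of interest gave close values in treated and control OPM1 cells, in the sets that stand for them. RPS6, the substrate of the S6 kinases, read 15860 and 16460 in OPM1 controls and 15390 and 15120 after treatment (-0.08, adjusted p = 0.342). RPS14, lost in the 5q- syndrome, read 13460 and 14510 before and 12860 and 13710 after (-0.07). RPS27 read 15150 and 14260 before and 14940 and 15190 after (0.04). RPS4X, encoded on the X chromosome, read 13100 and 13250 before and 12090 and 12620 after (-0.09). Another RPS14 set, 241241_at, was called higher in OPM1 on the deposited scale (0.83), but not with poly-A scaling (-0.27). A dim RPS27 set was called higher in MM1S, as described below. The 6 members reported to bind MDM2 (RPL11, RPS3, RPS7, RPS14, RPS25 and RPS27) had 0 calls in MM1S and 1 rise and 1 fall in OPM1 on the deposited scale, RPS25 and RPS7. That is 0% in MM1S, against 38.3% of all genes, and 33.3% in OPM1, against 64.5%.

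Of the 30 large subunit genes, 12 were higher and 4 lower in OPM1 on the deposited scale, 53.3% against 64.5% of all genes, and none was higher with poly-A scaling. In MM1S 1 was higher, RPL36A. RPL18, a protein of the subunit's surface, read 4848 and 10840 in OPM1 controls and 11140 and 12070 in treated cells. Control 1 alone was low, and the change of 0.67 ± 0.20 (adjusted p = 0.00576) became 0.10, not called, without it, 1.25 without control 2, and -1.43 with poly-A scaling. Its MM1S values were 10060 and 9364 before and 9472 and 8824 after.

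RPL36, also of the large subunit, read 6014 and 6975 in OPM1 controls and 10480 and 10030 after treatment, against 8023 and 7516, and 8569 and 8137, in MM1S. The OPM1 groups are separate, the change was 0.66 ± 0.09 (adjusted p = 1.94e-06) and it was 0.55 without control 1. RPL29, a lysine-rich protein known also for binding heparin, read 3377 and 5611 in OPM1 controls and 6636 and 6938 after. In MM1S all 4 arrays lay between 9245 and 9379. RPL29 changed by 0.64 ± 0.14 in OPM1 (adjusted p = 0.000578), 0.27 without control 1 and 1.00 without control 2.

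RPL38, known for its part in the translation of Hox messages, read 5361 and 8175 in OPM1 controls and 9734 and 9969 after treatment. Its change was 0.57 ± 0.13 (adjusted p = 0.000523), and 0.27 and 0.87 without control 1 and control 2. RPL12, a protein at the base of the stalk, read 8215 and 10260 before and 13210 and 13250 after (0.53 ± 0.10, adjusted p = 8.57e-05). In MM1S, RPL12 read 7403 and 6595 before and 7115 and 7496 after. For both genes the OPM1 groups do not overlap. The other large subunit rises were smaller: RPL22 0.29, RPL37 0.26, RPL30 0.25, RPL35 0.23, RPL32 0.23 and RPL8 0.21. Of these 6, RPL37 was called in every fit without 1 array.

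The falls among large subunit genes were RPL27A, RPL14, RPL19 and RPL7. RPL14 read 7241 and 7808 in OPM1 controls and 5898 and 5901 in treated cells, against 9616 and 8908, and 9216 and 8755, in MM1S. The OPM1 arrays are separate and the change was -0.35 ± 0.09 (adjusted p = 0.00162). A second RPL14 probe set read 2714 and 4351 before and 3125 and 3237 after and was not called (-0.11). RPL19 changed by -0.27 (adjusted p = 0.00463) and RPL7 by -0.18 (adjusted p = 0.0302), and RPL7 was not called in 6 of the 8 fits without 1 array.

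RPL27A was read by a dim probe set with the widest spread of the members. Signals were 2276 and 636.5 in OPM1 controls and 216.3 and 216.1 in treated cells, against 156 and 187, and 174 and 198, in MM1S. The change in OPM1 was -2.32 ± 0.32 (adjusted p = 1.41e-06) and -1.43 without control 1. A bright probe set that carries RPL27A beside other symbols went the other way on the deposited scale, from 9690 and 14030 to 15260 and 15500 (0.40). The same held for the stalk protein RPLP2, whose dim probe set gave 331 and 140 before and 125.5 and 126.4 after (-0.66 ± 0.21, adjusted p = 0.0081). It was not called without control 1 (-0.12), and the bright RPLP2 probe set with several symbols went from 7689 and 10580 to 14390 and 14270 (0.67). On OPM1 control 1, the array with the high 3′ to 5′ ratios, the dim sets of both genes were at their highest and the bright sets at their lowest. The part of RNA quality in this was not tested.

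Among large subunit genes of interest, RPL11, which binds MDM2 with RPL5, read 9877 and 11670 in OPM1 controls and 12140 and 11800 after treatment. It was not called (0.16, adjusted p = 0.126), nor in MM1S, where it read 9637 and 8937 before and 8727 and 8719 after. RPL3, the protein nearest the catalytic centre, read 9304 and 10490 before and 9936 and 10060 after in OPM1 (0.02). RPL41, the smallest ribosomal protein, read 15590 and 15330 before and 15600 and 15990 after (0.03). RPL39 read 15740 and 15090 before and 14730 and 14930 after (-0.06). These 4 stayed uncalled in both lines on the deposited scale. The stalk protein RPLP1, which helps recruit elongation factors, read 12580 and 13550 before and 14970 and 14880 after (0.19, adjusted p = 0.0215), a rise that poly-A scaling turned to -1.92.

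Of the 6 tested paralogs, none was called in MM1S and 3 were in OPM1, 50% against 64.5% of all genes, 1 higher on the deposited scale and 2 lower. RPL36AL, a second gene for the protein encoded by RPL36A, had the largest rise among members with a mean of at least 1000. It read 1254 and 1467 in OPM1 controls and 2902 and 2841 in treated OPM1 cells, against 2578 and 2363, and 2795 and 2672, in MM1S. Its change in OPM1 was 1.06 ± 0.13 (adjusted p = 2.43e-07), 0.95 without control 1, and -1.01 with poly-A scaling. In MM1S it was 0.15 (adjusted p = 0.405). Treated OPM1 cells thus reached the level of MM1S on the deposited scale.

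RPL22, in the set that stands for it, and its paralog RPL22L1 were called in opposite directions in OPM1 on the deposited scale. Another RPL22 set above 1000, 221726_at, was called lower (-1.03), as RPL22L1 was. RPL22, a protein that represses its paralog's message in other systems, read 8541 and 10130 in OPM1 controls and 11140 and 11580 after treatment (0.29, adjusted p = 0.00811), and turned to -1.82 with poly-A scaling. RPL22L1 read 2420 and 2292 before and 1890 and 1819 after (-0.34, adjusted p = 0.0343). In MM1S, RPL22L1 read 1584 and 1341 before and 1789 and 1570 after (0.20, adjusted p = 0.277). Neither call of the pair held without control 1, RPL22 also lost it without OPM1 Zalypsis 2, and RPL22L1 without either treated array. RPL7L1, a nucleolar paralog of RPL7, read 3154 and 3391 before and 2671 and 2588 after in OPM1 (-0.31, adjusted p = 0.0292), a call lost without control 2 or either treated array. RPL26L1 (-0.00), RPL39L (-0.07) and RPL10L (-0.10) were not called in OPM1.

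**Figure D3:**
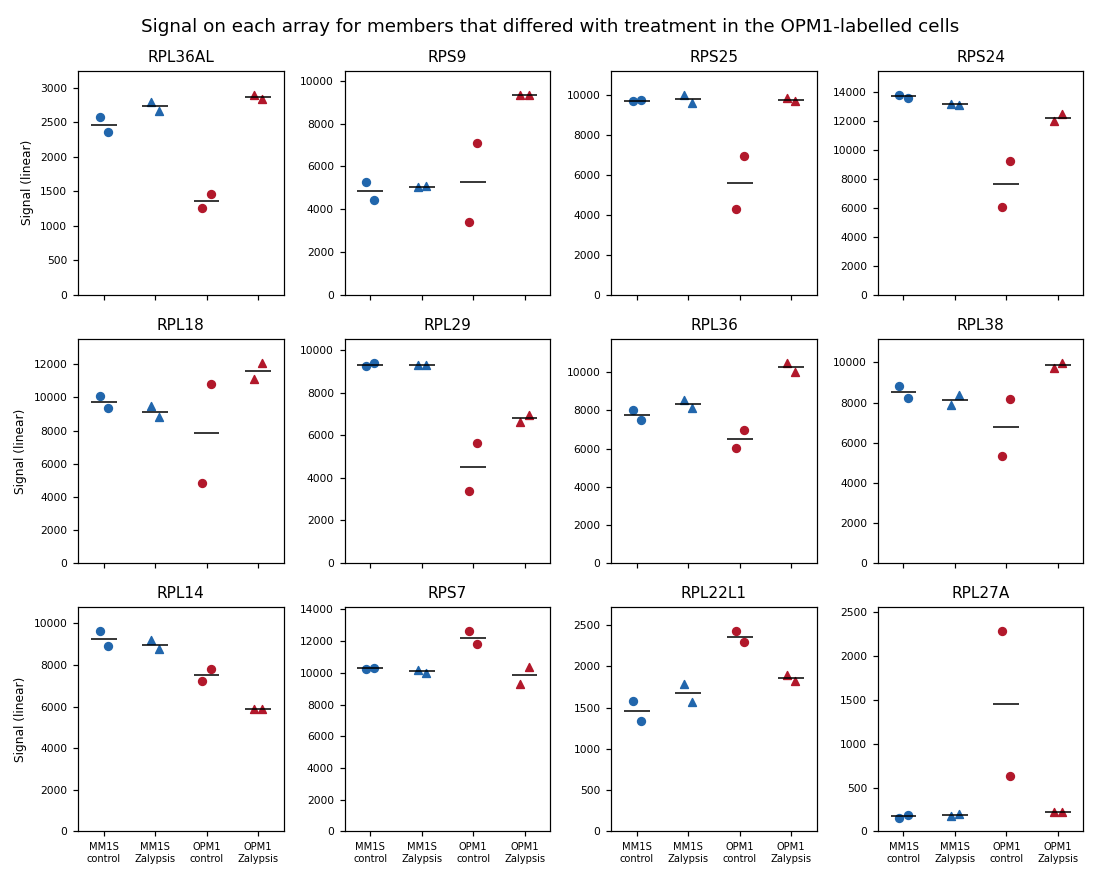
Deposited signal (linear scale) of 12 ribosomal protein genes on each array, controls as circles and Zalypsis as triangles, with bars at group means of 2 arrays. OPM1 control 1 is lower than control 2 for RPS9, RPS25, RPS24, RPL18, RPL29 and RPL38, and the rises of the treated OPM1 arrays hold on the deposited scale only.

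The difference between the lines' responses was tested itself. In 12 members the change was higher in OPM1 than in MM1S and in 5 lower, 29.3% of 58 against 47.6% of all genes, of which 15.8% were higher and 31.7% lower. With poly-A scaling of OPM1 the counts were 0 and 56, 96.6% of the members against 93% of all genes. The differences were 0.92 for RPL36AL (adjusted p = 0.000269), 0.86 for RPS9 (0.0142), 0.82 for RPS25 (0.0015), 0.77 for RPS24 (0.000887), 0.76 for RPL18 (0.0325) and 0.64 for RPL29 (0.0137). RPL38 (0.64), RPL36A (0.63), RPL36 (0.56), RPL12 (0.46), RPL37 (0.32) and RPL8 (0.29) followed. Lower responses in OPM1 were those of RPL27A (-2.43), RPLP2 (-0.75), RPL22L1 (-0.54), RPL7L1 (-0.49) and RPS7 (-0.28). RPL14 missed the threshold at -0.31 (adjusted p = 0.05). These values are for the set that stands for each gene. Other RPL38 sets were called lower for the difference on the deposited scale (202028_s_at -1.55, 221943_x_at -2.45). Sets naming RPLP2 (200909_s_at, 0.69) and RPL27A (223707_at, 0.93) beside other symbols were called higher. The bright RPL27A set with several symbols was not called (0.42).

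Of these 17 differences, 8 were called in every fit without 1 array: RPL29, RPL36, RPL36A, RPL36AL, RPL38, RPS24 and RPS25 higher, and RPL27A lower. The number higher fell to 7 without MM1S control 1 and went to 24 without OPM1 control 2. The number lower was 1 without MM1S control 2, MM1S Zalypsis 1 or OPM1 Zalypsis 1, 2 without OPM1 Zalypsis 2, and 3 without MM1S control 1 or MM1S Zalypsis 2. The difference for RPS9 was 0.33 without OPM1 control 1, for RPL29 0.27 and for RPL18 0.18, the last not called.

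The comparison of the untreated lines called about the same share of members as of all genes. In OPM1 controls 24 members were higher and 13 lower than in MM1S controls on the deposited scale, 63.8% of 58 against 64.8% of all genes, of which 29% were higher and 35.8% lower. The median was 0.11, against -0.05 for all genes. With poly-A scaling 87.9% of the members were called, against 74.6% of all genes. Of the members, 50 were higher and 1 lower, with medians of 1.17 for the members and 0.83 for all genes. That scaling divided the OPM1 arrays only. MM1S controls, with poly-A means of 19.72 and 19.69 against 299.7 and 447.9 in OPM1 controls, were left unscaled. Values with poly-A scaling therefore give no direction between the lines, here and below. Arrays of the lines did not overlap for 44 members, against 80.1% of all genes. These comparisons share the control arrays with those of treatment.

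RPS6 had the largest excess among members with a mean of at least 1000. It read 15860 and 16460 in OPM1 controls and 9436 and 9100 in MM1S controls, 1.74-fold as a ratio of means (log2 0.80 ± 0.07, adjusted p = 5.06e-09). All 3 RPS6 probe sets were higher, by 0.80, 0.68 and 0.81. Small subunit genes were called in 55%, against 64.8% of all genes. They were higher in 9 of 20 and lower in 2, RPS24 (-0.87) and RPS25 (-0.83), on the deposited scale. Their values with poly-A scaling, 0.18 and 0.22, give no direction between the lines. RPS3, an entry-channel protein that also has a repair function, was 0.39 higher, with 13020 and 13580 against 10550 and 9683. RPS10 was 0.39 higher, RPS12 0.30, RPS14 0.25, RPS7 0.24, RPS21 0.21, RPS27 0.21 and RPS23 0.17. RPS4X did not differ beyond its spread (0.00, 95% interval -0.14 to 0.14), and RPS9 was 0.03.

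Large subunit genes were higher in OPM1 controls in 12 of 30 and lower in 7 on the deposited scale. That is 63.3% called, against 64.8% of all genes. RPL6, a protein of the subunit's outer face, read 9063 and 10840 against 6579 and 6279 (0.62, adjusted p = 5.88e-06). RPL30, whose yeast counterpart regulates its own splicing, read 10730 and 11930 against 7753 and 7338 (0.58). RPL10A read 14240 and 13890 against 10110 and 9232 (0.54). For these 3 the lines do not overlap. RPL29 was the lowest of the bright members, -1.09 ± 0.14 (adjusted p = 1.11e-06), and -0.73 without OPM1 control 1. RPL32 was -0.33, RPL14 -0.30, RPL37 -0.27, RPL38 -0.36 and RPL36 -0.26, and the last 2 were not called without OPM1 control 1. With poly-A scaling these 5 turned to between 0.69 and 0.79 and RPL29 to -0.04, values that give no direction between the lines. RPL41 (-0.01) and RPL39 (0.10) were not called.

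The paralogs were called in all 6 tested cases, 2 higher and 4 lower. All genes were called in 64.8%, with 29% higher and 35.8% lower. RPL39L, a paralog of RPL39 described in testis and in tumours, read 141 and 173 in OPM1 controls and 1058 and 793 in MM1S controls, 0.170 times as much (log2 -2.33 ± 0.16, adjusted p = 5.02e-11). It stayed between 138 and 158 in treated OPM1 cells and between 962.9 and 998.5 in treated MM1S cells, and was called after treatment in neither line on the deposited scale, while poly-A scaling gave -1.78 in OPM1, called lower. Between the untreated lines it was -1.41 with that scaling, the 1 member called lower, a value that gives no direction between the lines. RPL26L1, which differs little from RPL26, read 976 and 1095 against 1696 and 1485 (-0.60, turned to 0.43 by poly-A scaling). RPL36AL was -0.85 (0.19 with poly-A scaling) and RPL10L -0.53. RPL22L1 (0.68) and RPL7L1 (0.64) were higher in OPM1.

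Without OPM1 control 1, all 24 of the higher calls between the lines stayed and 6 more appeared, RPS9 (0.55) among them. Without MM1S control 2, 15 were higher, and without OPM1 control 1, 30 were. RPS24 was -0.57 and RPS25 -0.48 without OPM1 control 1, against -0.87 and -0.83 with it.

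The study's design text sets a limit of a 2-fold difference, which few members passed when the linear group means were compared on the deposited scale. None of the 58 passed it in MM1S, where 3.87% of all genes were higher and 10.5% lower. In OPM1, RPL36A and RPL36AL passed it upwards and RPL27A downwards, where 11.5% and 27.4% of all genes did. For the difference in response RPL36A was higher and RPL27A and RPLP2 lower, where 8.17% and 22.8% of all genes were. Between untreated lines RPL27A and RPLP2 were higher in OPM1 and RPL10L, RPL29, RPL36A and RPL39L lower, where 14.3% and 19.6% of all genes were.

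**Figure D4:**
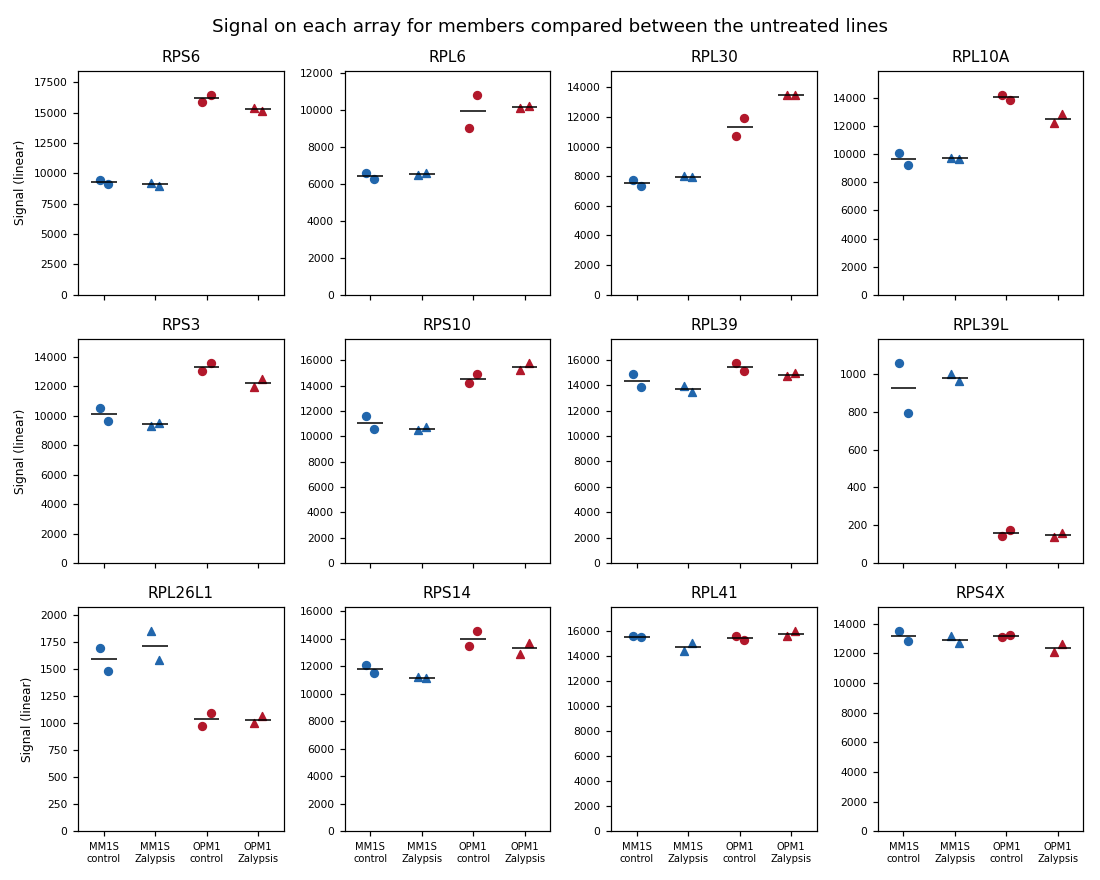
Deposited signal (linear scale) of 12 ribosomal protein genes on each array, controls as circles and Zalypsis as triangles, with bars at group means of 2 arrays. RPS6, RPL6, RPL30 and RPL10A are higher and RPL39L and RPL26L1 lower on OPM1 controls than on MM1S controls, on the deposited scale. Poly-A scaling, made on the OPM1 arrays alone, gives no direction between the lines.

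Bright and dim probe sets of the same genes gave different pictures in MM1S. Of the 51 tested probe sets that do not stand for a gene, 13 were higher and 0 lower in MM1S, 25.5% against 32.4% of all probe sets, of which 12.7% were higher and 19.8% lower. In OPM1 25 were higher and 5 lower on the deposited scale, 58.8% against 58.3% (22.1% higher and 36.2% lower). Splitting all 109 tested member probe sets at a mean signal of 1000, a limit chosen after values were seen, 75 were brighter and 34 dimmer. In MM1S 0 of the 75 were called in limma's fit, also at an unadjusted p under 0.05, against 24.8% of all bright probe sets (11.6% higher and 13.3% lower), and 14 of the 34 dimmer ones were higher and 0 lower, 41.2% against 33.1% of all probe sets under 1000 (12.8% higher and 20.3% lower). In OPM1 25 of the 75 were higher and 6 lower, against 68.6% called among all bright ones (29.3% higher and 39.3% lower). Of the 34 dimmer ones, 17 were higher and 6 lower, 67.6% against 57.4% (21.5% higher and 35.9% lower). Over all 109 sets, the response on the deposited scale was higher in OPM1 than in MM1S for 19 sets and lower for 9, against 39.2% of all probe sets (12.8% and 26.4%). Between untreated lines 38 were higher and 23 lower in OPM1, against 57.4% (25.7% and 31.7%). Poly-A scaling made these 0 and 103, and 88 and 1. The counts between untreated lines give no direction there, as MM1S was not scaled.

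The dim RPS24 set 1555878_at shows the contrast. It read 305 and 285 in MM1S controls and 601 and 528 after Zalypsis (log2 0.87), and 229 and 165 before and 399 and 356 after in OPM1 (0.85). The bright RPS24 set was not called in MM1S (-0.06). A dim RPL35A set, 238026_at, read 248 and 205 before and 433 and 393 after in MM1S (0.79), and 94.0 and 82.1 before and 301 and 284 after in OPM1 (1.44). The bright RPL35A set was called in neither line. Dim sets of RPS27 (0.79), RPL37A (0.69), RPL31 (0.67), RPS15 (0.62), RPL37 (0.51), RPS15A (0.51) and RPS23 (0.45) were also higher in MM1S. In OPM1 on the deposited scale the largest were RPS29 238824_at at 2.07 and RPL37 sets at 1.90 and 1.70. The RPS29 set, at 11.3 and 20.3 before and 187 and 150 after, was the 1 member probe set still higher with poly-A scaling (0.83). Which transcripts these dim sets read was not tested.

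Some genes had probe sets that were called in opposite directions. Among 30 genes with more than 1 tested set, all sets had the same call in 19 in MM1S, in 13 in OPM1 and in 11 between untreated lines. In OPM1 the opposite pairs were RPL22 and RPL38. For RPL22, 3 bright sets were higher by 0.29 to 0.31 on the deposited scale, while 221726_at fell from 1914 and 2210 to 939 and 1051 (-1.03), also a set above 1000. For RPL38, the bright set was higher (0.57), while 202028_s_at went from 2786 and 861 to 673 and 641 (-1.20) and 221943_x_at from 2004 and 568 to 256 and 243 (-1.97). Both lower RPL38 sets were highest on OPM1 control 1. Between untreated lines the opposite sets belonged to RPL31, RPL38 and RPS14.

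Second sets gave smaller rises for RPS9 and RPL18, but not for RPL29 (0.68 in the second set, 0.64 in the first) or RPS24, on the deposited scale. RPS9 was 0.92 in the set that stands for it and 0.38 in 214317_x_at, which read 5805 and 6444 in OPM1 controls and 8063 and 7910 after. RPL18 was 0.67 in 1 set and 0.35 in 222297_x_at, which read 4956 and 5022 before and 6537 and 6170 after. The remaining, dim RPL18 set was -0.33 and not called. In the second sets of RPS9 and RPL18, OPM1 control 1 is not apart from control 2, and treated and control arrays remain separate on the deposited scale.

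**Figure D5:**
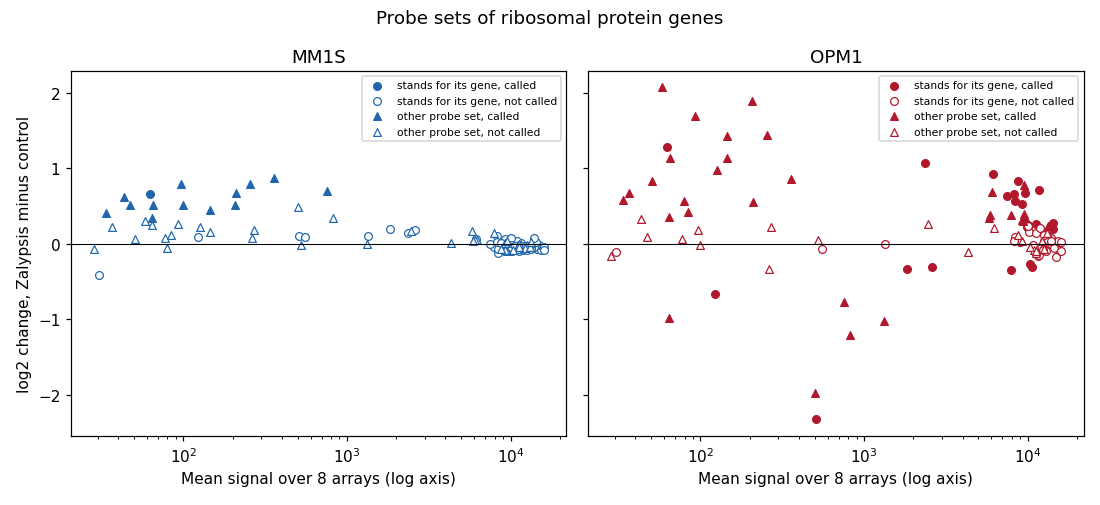
Log2 change after Zalypsis of the 109 tested ribosomal protein probe sets against their mean signal (log axis), in MM1S and OPM1 on the deposited scale, with sets that stand for a gene and called sets marked. In MM1S the 14 called sets all have means under 1000; in OPM1 42 are higher and 12 lower, counts that become 1 and 101 with poly-A scaling.

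Probe sets that carry a ribosomal protein gene beside other symbols were fitted apart, in a fit of 32768 probe sets. In MM1S 3 of the 63 tested were higher and 0 lower, against 29.4% called among all (12.5% higher and 16.9% lower). In OPM1 13 were higher and 5 lower on the deposited scale, against 54.1% called (22% higher and 32.1% lower), and 2 and 59 with poly-A scaling. RPL23, which binds MDM2, was the extreme: its set 200888_s_at read 81.7 and 1296 in OPM1 controls and 6879 and 7332 in treated OPM1 cells, against 7578 and 6825, and 6756 and 6374, in MM1S. The change in OPM1 was 4.20 ± 0.70 (adjusted p = 0.000164), and the OPM1 controls, which differ widely from each other, are far below the 6 other arrays. With poly-A scaling the rise was 2.23 and still called. A second, dim RPL23 set read 114 and 118 in OPM1 controls and 155 and 147 after and was not called.

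RPL5 was not called after treatment in its bright sets in either line. Its set 213080_x_at read 8150 and 7762 in MM1S controls, 7687 and 7850 in treated MM1S cells, 13200 and 12550 in OPM1 controls and 12330 and 11650 in treated OPM1 cells. Between the untreated lines it was 0.69 higher in OPM1 in both bright sets. RPL10, which joins the subunit last, read 9898 and 9441 before and 9304 and 9111 after in MM1S, and 9821 and 10590 before and 10840 and 10930 after in OPM1, in its brightest set, with no call. The bright RPL36A set was higher in OPM1 by 0.62 on the deposited scale, at 7829 and 9986 before and 13410 and 13840 after. A dim RPL27A set, 223707_at, rose in both lines on the deposited scale, from 60.8 and 44.2 to 147 and 125 in MM1S (1.00) and from 238 and 217 to 991 and 917 in OPM1 (1.93). RPL26, RPL15, RPLP0, RPSA and RPS27A were not analysed here.

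Other genes that act on ribosomal proteins or with the ribosome were read against the 38.3% of all genes called in MM1S and 64.5% in OPM1. With poly-A scaling none of them rose in OPM1. Of 36 initiation factors, 4 rose and 6 fell in MM1S and 7 rose and 18 fell in OPM1 (27.8% and 69.4% called), with medians of -0.09 and -0.28. EIF2B3, a subunit of the exchange factor of eIF2, changed by -1.77 in MM1S and -3.38 in OPM1. EIF4E, which binds the message's cap, changed by -2.26 in OPM1, EIF4B by -1.72, and EIF4EBP1, the inhibitor of EIF4E, by -1.01 in MM1S and -1.55 in OPM1. Of 11 elongation and termination factors, 1 rose and 3 fell in MM1S and 3 rose and 6 fell in OPM1 (36.4% and 81.8%). EEFSEC, the selenocysteine factor, changed by -1.52 in MM1S, and EIF5A by 2.00 in OPM1 on the deposited scale (-0.07, not called, with poly-A scaling). The release factors ETF1 (-1.67) and GSPT1 (-1.62) fell in OPM1.

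Of 17 tested kinases of ribosomal protein S6 and genes of its control, 2 rose and 8 fell in MM1S and 2 rose and 10 fell in OPM1 (58.8% and 70.6%). LARP1, which binds the TOP motif, went from a mean of 2471 to 1128 in MM1S (-1.11) and from 3759 to 694 in OPM1 (-2.38). RPTOR, the mTOR partner, changed by -1.33 and -1.94, and the kinase RPS6KA3 by -2.79 in OPM1. Of 16 genes listed as chaperones and importers of ribosomal proteins, 0 rose and 4 fell in MM1S and 2 rose and 9 fell in OPM1 (25% and 68.8%). HEATR3, which serves RPL5 import, changed by -1.02 and -2.27, and IPO7 by -2.14 and IPO5 by -1.78 in OPM1. AAR2, a splicing factor that the list also held, changed by 1.70 in OPM1 on the deposited scale (-0.30, not called, with poly-A scaling). Of 10 other TOP messages, 1 rose and 2 fell in MM1S and 2 rose and 3 fell in OPM1 (30% and 50%). NPM1, nucleophosmin, changed by -0.29 in MM1S and -0.84 in OPM1. FAU, which encodes a small subunit protein fused to a ubiquitin-like domain, changed by -0.02 in MM1S and by 0.35 in OPM1 on the deposited scale (adjusted p = 0.00662), where its controls read 7397 and 9786 and treated cells 10830 and 10810.

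The members also differed from other genes in length. Their median span from start to end, introns included, was 5.09 kb over 58 genes, against 28.3 kb over 11855 tested genes with a span, by the RefSeq gene table of GRCh38.p14.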

How the data were processed

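Total RNA of MM1S and OPM1 cells was measured on 8 single-colour Affymetrix arrays, 2 for each of 4 groups. Per the labels' protocols, 100 ng was amplified in a 2-cycle reaction and labelled with GeneChip kits, while the design text names an Enzo kit. The authors deposited dChip output as linear intensity, per the design text. Its version and normalization are not given here in any source used. Precision is limited by the number of arrays.

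The deposited values were kept as they were and tested as log2(signal + 32). Of the probe sets, 41091 had 1 gene symbol, 1801 several, 11721 none, and 62 were controls. Symbols were looked up by gene identifier in RefSeq (GRCh38.p14) for 41037, and none changed. Of 40 further probe sets whose symbol starts with RPL or RPS, none met the rule. The probe set with the highest mean stood for a gene, and genes with a mean under 28.86 (probe sets under 20.86) were left out. Means of the 4 groups were fitted over all 8 arrays in R 4.3.3 by lmFit and contrasts.fit of limma 3.58.1 (eBayes with trend, 4 residual and 16.2 prior degrees of freedom). P-values were adjusted by Benjamini-Hochberg over all genes, or all probe sets, of a contrast, and called under 0.05. Errors are standard errors or, for shares, SD. Arrays of a group correlated at 0.988 to 0.993 and arrays of different groups at 0.802 to 0.963. The procedure was tested on simulated data. All members could be named, with array values for genes of interest and for the largest calls, and up to 4 called genes a pathway list. Members and lists were chosen with earlier results of these data known. The split at 1000, the limit of a log2 change over 1 for sets with several symbols, the promoters shown and the genes in the plots were chosen after values were seen. Alternatives were scaling, pseudocount, filter, choice of probe sets, a replicate block, leaving out each array, and the 2-fold limit of the design text.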

Additional observations from a re-analysis of the deposited data

Results flagged for a closer look

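The response to Zalypsis differed between the lines, by the interaction contrast of limma with Benjamini-Hochberg adjustment over all genes, for 17 members on the deposited scale, where 47.6% of all genes did. Values are OPM1 minus MM1S on the log2 scale. Higher in OPM1 were RPL36AL (0.92), RPS9 (0.86), RPS25 (0.82), RPS24 (0.77), RPL18 (0.76), RPL29 (0.64), RPL38 (0.64), RPL36A (0.63), RPL36 (0.56), RPL12 (0.46), RPL37 (0.32) and RPL8 (0.29). With poly-A scaling of OPM1 none of these was higher. Lower in OPM1 were RPL27A (-2.43), RPLP2 (-0.75), RPL22L1 (-0.54), RPL7L1 (-0.49) and RPS7 (-0.28). Other sets of RPL38, and a set naming RPLP2 and a set naming RPL27A beside other symbols, were called in the opposite direction on the deposited scale. The array OPM1 control 1, with its high 3′ to 5′ ratios, is lower than control 2 for RPS9, RPS25, RPS24, RPL18, RPL29 and RPL38, and its part in these differences was not tested beyond leaving it out.

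Outside the members, 4 probe sets that carry a ribosomal protein gene beside other symbols rose by over 1 in OPM1 on the deposited scale. They were 200888_s_at of RPL23 (4.20), 1565759_at of RPL13 (2.36), 223707_at of RPL27A (1.93) and 224957_at of RPL17 (1.28). With poly-A scaling 200888_s_at (2.23) and 1565759_at (0.90) were still higher. The RPL13 set read 28.1 and 19.7 in OPM1 controls and 281.5 and 227.6 in treated cells, and the RPL17 set 320.8 and 325 before and 780.4 and 885.2 after.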

How the results depend on the processing

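Poly-A scaling of the OPM1 arrays moved most. It gave 0 members higher and 57 lower in OPM1 (median -2.04), 0 and 56 for the difference (median -1.99) and 50 and 1 between untreated lines (median 1.17). For member probe sets it gave 1 and 101 in OPM1, 0 and 103 for the difference, and 88 and 1 between untreated lines, an alternative chosen after seeing the data. In OPM1 it turned RPL36AL to -1.01, RPS9 to -1.72, RPS25 to -1.27, RPS24 to -1.40, RPL18 to -1.43, RPL11 to -1.95, RPL22 to -1.82, RPL3 to -2.09, RPL41 to -2.08, RPLP1 to -1.92, RPS19 to -1.83 and RPS27 to -2.07. The difference turned to -1.16 for RPL36AL, -1.75 for RPS9, -1.28 for RPS25, -1.34 for RPS24, -1.34 for RPL18, -1.46 for RPL29, -1.86 for RPL11, -1.81 for RPL22, -0.59 for RPL36A, -2.10 for RPL39, -2.09 for RPL3, -1.998 for RPL41, -1.90 for RPLP1, -2.10 for RPS14 and -1.86 for RPS19. Between untreated lines it turned to 0.18 for RPS24, 0.19 for RPL36AL, 0.22 for RPS25, 0.43 for RPL26L1, 1.04 for RPL41 and 0.90 for RPLP1. The scaling itself moves the median of all genes to -1.72, -1.75 and 0.83, and 93.3%, 93% and 74.6% of all genes were called with it. MM1S arrays were not scaled, so its values between untreated lines give no direction between them.

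After quantile normalization the median of all genes was 0.07 for MM1S, 0.10 for OPM1, 0.03 for their difference and 0.03 between untreated lines. With that normalization, 43.9%, 72.2%, 53.8% and 66.1% of all genes were called, against 10.3%, 55.2%, 37.9% and 56.9% of the members. It gave 6 higher in MM1S, an OPM1 median of 0.10, and 15 higher with a median of 0.0035 between untreated lines, and turned RPL39L to 0.34 in OPM1 and RPS4X to -0.16 between untreated lines. Without _x_at and _s_at probe sets, 31 members were left. There were 9 higher in MM1S (median 0.0365), 12 higher and 3 lower in OPM1 (median 0.21), 7 higher for the difference, and 7 higher and 8 lower between untreated lines. In these comparisons 29%, 48.4%, 35.5% and 48.4% of the members were called, against 35.9%, 59.2%, 43.1% and 60% of all genes. RPLP2 turned to 0.057, RPL22 to -1.03 and RPS14 to 0.83 in OPM1, RPS24 to -0.015 and RPL22 to -1.03 for the difference, and RPS14 to -0.75 between untreated lines. The mean of a gene's probe sets gave 4 higher in MM1S (median 0.033) and 5 lower in OPM1 (median 0.0925), and turned RPS14 to 0.40 in OPM1 and -0.17 between untreated lines.

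No filter gave 10 higher in OPM1, and 5 higher and 3 lower for the difference, and a 60% filter gave 0 higher in MM1S. Pseudocount 1 gave 3 lower for the difference. No trend gave 10 higher in OPM1, 3 lower for the difference and 15 higher between untreated lines. A fit on the 4 arrays compared gave 1 lower in MM1S and 11 higher in OPM1. Linear means over 2-fold apart gave 0 higher in MM1S, 2 higher and 1 lower in OPM1, 1 higher and 2 lower for the difference, and 2 higher and 4 lower between untreated lines. Over all probe sets of the members, shares on the 8 arrays were 6.88%, 7.25%, 7.15%, 7.52%, 7.89%, 8.33%, 9.97% and 10.1%.

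Leaving out 1 array at a time gave 1 higher throughout and 0 to 1 lower in MM1S (median -0.06 to -0.00), 12 to 24 higher and 3 to 8 lower in OPM1 (median 0.037 to 0.10), 7 to 24 and 1 to 6 for the difference (median 0.06 to 0.14), and 15 to 30 and 10 to 15 between untreated lines (median 0.063 to 0.16). Replicate numbers are shared by control and Zalypsis arrays, but 2 pairs a line cannot show a pairing (correlations of deviations 0.21 and 0.20). With the replicate block no member lost its call and 8 gained one: RPL10L lower in MM1S (1 lower), RPL10A lower in OPM1 (9 lower), RPL22 (0.30), RPL32 and RPS29 higher and RPL14 lower for the difference (15 and 6), and RPL35 higher and RPL18 lower between untreated lines (25 and 14). Causes were not tested. With 2 arrays a group, small changes of dim probe sets stay uncertain.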
